A study of Mus musculus with 12 samples.

Results

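The genes described here are 10 parts of the transforming growth factor beta (TGF-beta) system: the ligands Tgfb1, Tgfb2 and Tgfb3, the latent TGF-beta binding proteins Ltbp1, Ltbp2, Ltbp3 and Ltbp4, the receptors Tgfbr1 and Tgfbr2, and Tgfbi, a secreted matrix protein whose gene is induced by TGF-beta. They were chosen by name, from 24341 named genes in the deposited count table, and where a gene had several RefSeq accessions the one with the highest mean level stood for it. Aortic RNA of male C57BL/6J mice, 10 weeks old at the start, was sequenced in 3 groups of 4 libraries. The saline group received saline into the infrarenal aorta and its aortas were taken at day 7. The other groups received porcine pancreatic elastase (PPE), which breaks down elastin and is a standard way of producing an aneurysm in the mouse. Their aortas were taken at day 7 in the group called PPE week 1 and at day 14 in the group called PPE week 2. All animals thus had an infusion into the aorta, and no saline group was harvested at day 14, so in PPE week 2 against saline the enzyme and the time after surgery cannot be told apart.

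TGF-beta is made as a precursor whose propeptide stays wrapped around the ligand and keeps it latent. Latent TGF-beta binding proteins tether that complex to fibrillin microfibrils in the matrix, from which integrins, proteases or thrombospondin release active ligand. The active ligand binds the type II receptor Tgfbr2, which phosphorylates the type I receptor Tgfbr1, and Smad proteins carry the signal to the nucleus. In humans, inherited variants of ligands, receptors and Smads of this pathway cause aneurysms of the aorta.

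The total count per library was 8343313 to 12269131. A precursor of ribosomal RNA took a mean share of 41.3% in the saline libraries (SD 6.48, n = 4), which was 30.4% (SD 6.34) and 20.4% (SD 1.13) in those of PPE week 1 and 2. That share was lower in both PPE groups (two-sided exact permutation p = 0.0286 each, the minimum for groups of 4). The aortic label was checked against 7 smooth muscle genes, Acta2, Myh11, Tagln, Cnn1, Myocd, Smtn and Lmod1. All 7 were tested, and they summed to 4495 to 6006 CPM (counts per 1000000 counts of a library, scaled by TMM) in saline, 1496 to 2726 in PPE week 1 libraries and 4188 to 9450 in PPE week 2 libraries. Macrophage and monocyte genes summed to 1881 to 2260, 3307 to 4306 and 1068 to 2736 CPM in the same order, fibroblast genes to 1416 to 1648, 706 to 1011 and 874 to 1115 CPM, and endothelial genes to 640 to 849, 674 to 784 and 707 to 1184 CPM. The defining markers Itgam of macrophages, Ly6a of fibroblasts and Pecam1 of endothelium had a count of 0 in all 12 libraries. Of 3 skeletal muscle genes, Acta1 was also at 0 throughout. Myh4 and Ckm had 206 and 24 counts in PPE week 1 replicate 3 and 0 in every other library. Acta2 and Tagln made up most of the smooth muscle sum, with saline means of 3569 and 908 CPM. Myh11, Myocd and Smtn had saline means of 14.2, 5.77 and 0.83 CPM. How reads shared between accessions were counted is not given. A count of 0 or a low level here thus does not show that a gene was little expressed. In whole aortas, fewer cells of a type and less RNA per cell cannot be told apart.

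Of the 10 genes, 9 had enough counts to be tested and Ltbp4 had not. The promoter table of RefSeq (GRCm38.p6) held 9 of the 10, and Tgfb3 was not in it. For Ltbp2 all of its upstream bases lie in annotated exons, so windows of 8 genes were searched. The following windows lie within the 250 bases upstream of a start site, up to the first annotated exon base. They are shown for Ltbp1, whose 2 forms have different start sites and separate counts, and for Ltbp3 and Tgfbi, which passed the test below. All 4 are on the plus strand and read 5′ to 3′. Capitals mark a CAGACA element, the short sequence that Smad proteins bind, or a GGGCGG box, in either orientation.
Ltbp1 long form, chr17:75005279-75005479: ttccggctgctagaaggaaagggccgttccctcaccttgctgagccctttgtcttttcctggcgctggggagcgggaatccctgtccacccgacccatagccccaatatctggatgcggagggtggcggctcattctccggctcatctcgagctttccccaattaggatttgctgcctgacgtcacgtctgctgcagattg
Ltbp1 short form, chr17:75178531-75178780: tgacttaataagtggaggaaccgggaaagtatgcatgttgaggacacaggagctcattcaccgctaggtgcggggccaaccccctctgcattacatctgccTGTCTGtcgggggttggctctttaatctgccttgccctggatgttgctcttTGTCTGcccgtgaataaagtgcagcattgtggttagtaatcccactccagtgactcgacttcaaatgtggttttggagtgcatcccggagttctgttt
Ltbp3, chr19:5740650-5740899: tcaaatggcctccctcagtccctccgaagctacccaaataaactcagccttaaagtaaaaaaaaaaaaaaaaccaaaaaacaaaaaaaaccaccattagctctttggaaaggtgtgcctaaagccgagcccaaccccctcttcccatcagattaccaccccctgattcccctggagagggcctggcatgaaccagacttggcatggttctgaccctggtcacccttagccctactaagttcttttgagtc
Tgfbi, chr13:56609336-56609522: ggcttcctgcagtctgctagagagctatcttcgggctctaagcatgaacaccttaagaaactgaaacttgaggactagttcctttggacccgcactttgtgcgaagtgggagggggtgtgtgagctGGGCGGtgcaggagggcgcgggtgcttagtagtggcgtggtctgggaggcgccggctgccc
Both strands were searched for 6 motifs: the Smad palindrome GTCTAGAC, the Smad element CAGACA, the AP-1 element TGAGTCA, the STAT element TTCNNNGAA, the GC box GGGCGG and the TATA box TATAAA. The short-form window of Ltbp1 held CAGACA at 2 places, both on the opposite strand, with the first base at -149 and at -98 from the start site. CAGACA was also found upstream of Tgfb2, at -204, and in a window of Tgfbr1, at -203. It was present in 17.1% of all 32807 promoters in the table. The Tgfbi window held 1 GGGCGG, at -124, a box found in 32.7% of promoters. Both shares over all promoters were taken on the full 250 upstream bases, while the Tgfbi window had 187. The window upstream of Tgfb1 held 5 GGGCGG boxes and had a GC content of 75.2%. Windows of Ltbp4 held 5, 7 and 2 such boxes, and a window of Tgfbr1 held 2. The first 2 Ltbp4 windows overlap, and the 5 boxes of the first are among the 7 of the second. No match to any of the 6 was found in the windows of the Ltbp1 long form, Ltbp3 and Tgfbr2. That says only that these letters are absent there. A match is a description of sequence, and binding was not measured.

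The ligand Tgfb1, the isoform most often linked to inflammation and fibrosis (NM_011577, chromosome 7, 25687002 to 25705077, mm10), was at 97.8, 79.3, 89.9 and 64.7 CPM in saline replicates 1 to 4. The values were 132, 135, 116 and 129 CPM in PPE week 1 replicates 1 to 4 and 62.8, 129, 58.5 and 146 CPM in those of PPE week 2. All 4 PPE week 1 libraries lay above all 4 saline libraries, while PPE week 2 was split, with replicates 2 and 4 within or above the week 1 range and replicates 1 and 3 below the saline range. The log2 fold change at PPE week 1 was 0.62 ± 0.25 (SE) and did not pass (edgeR adjusted p = 0.155). In week 2 it was 0.25 ± 0.25 against saline (adjusted p = 0.691) and -0.37 ± 0.25 against PPE week 1 (adjusted p = 0.460). A fit on only the 8 libraries of saline and PPE week 1 gave 0.62 with an adjusted p of 0.00455.

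Tgfb2, a ligand needed in the development of the heart and great vessels (NM_009367, chromosome 1, 186622787 to 186709697), was at 57.4, 38.0, 74.2 and 39.5 CPM in saline. PPE week 1 had 51.3, 41.9, 32.1 and 28.8 CPM, and PPE week 2 had 23.9, 62.1, 99.5 and 52.6 CPM. The 3 groups overlapped, and both the lowest and the highest of the 12 values were in PPE week 2. None of its differences passed, with log2 fold changes against saline of -0.44 ± 0.35 in week 1 and 0.19 ± 0.35 in week 2, and of 0.63 ± 0.35 between the PPE weeks (edgeR adjusted p = 0.553, 0.854 and 0.353).

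Tgfb3, the ligand with the highest level per length in saline (NM_009368, chromosome 12, 86056743 to 86079041), was at 227, 205, 265 and 197 CPM in saline. PPE week 1 libraries had 188, 95.2, 172 and 119 CPM, and PPE week 2 libraries 208, 252, 419 and 199 CPM. Every PPE week 1 library lay below every library of the other groups, and PPE week 2 replicate 3 was the highest of the 12. Tgfb3 was 1.88-fold higher at PPE week 2 than at PPE week 1, at 269.6 ± 103 against 143 ± 43.6 CPM (SD, n = 4; log2 fold change 0.91 ± 0.25, edgeR adjusted p = 0.0449). Against saline the log2 fold change was -0.64 ± 0.25 at PPE week 1 (adjusted p = 0.143) and 0.27 ± 0.25 at PPE week 2 (adjusted p = 0.662). The week 1 value passed once PPE week 2 replicate 3 was left out (-0.64, adjusted p = 0.0407). The difference between the PPE weeks was close to the threshold: without any 1 of saline replicates 1 to 4, PPE week 1 replicates 2, 3 and 4, or PPE week 2 replicates 2 and 3, its adjusted p was 0.0568 to 0.131, and without PPE week 2 replicate 3 the log2 fold change was 0.61. It did not pass without a low-count filter (adjusted p = 0.116), in the 8 libraries of the PPE weeks alone (0.0956), or with the ribosomal precursor share as a covariate (0.552).

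Per 1000 bases of transcript, a scale on which genes can be compared, the order of the ligands differed between groups. In saline Tgfb3 was at 66.1 ± 8.92, Tgfb1 at 38.1 ± 6.58 and Tgfb2 at 10.2 ± 3.34 CPM per 1000 bases (SD, n = 4). In PPE week 1 libraries Tgfb1 was at 58.8 ± 3.74, Tgfb3 at 42.4 ± 12.9 and Tgfb2 at 7.53 ± 1.99, and at PPE week 2 Tgfb3 was at 79.7 ± 30.3, Tgfb1 at 45.5 ± 20.6 and Tgfb2 at 11.6 ± 6.10. Tgfb3 exceeded Tgfb1 in 4 of 4 saline libraries, in 0 of 4 at PPE week 1 and in 3 of 4 at PPE week 2. Because the ratio of counts within a library does not depend on how libraries are scaled, it was also taken directly. The log2 ratio of Tgfb3 to Tgfb1 counts was 1.22 to 1.61 in saline, -0.50 to 0.57 in PPE week 1 and 0.45 to 2.84 in PPE week 2. The saline and PPE week 1 ranges did not overlap, while PPE week 2 covered the whole saline range and the top of the week 1 range. The ratio of Tgfb2 to Tgfb1 was -1.06 to -0.28, -2.16 to -1.36 and -1.47 to 0.77 in the same order. These ratios were chosen after the levels were seen and are given as a description, with no test.

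**Figure D1:**
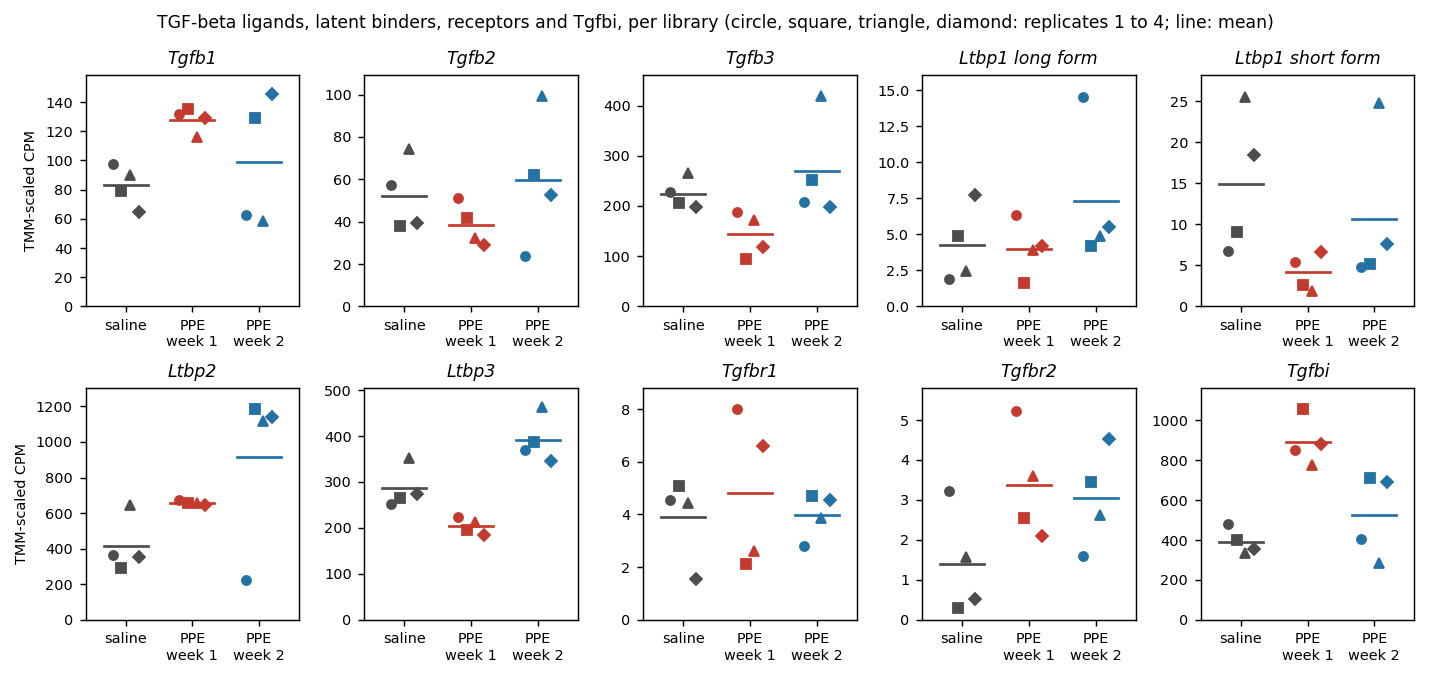
TMM-scaled CPM (vertical axes, linear from 0) of each tested accession of the TGF-beta genes in the 12 libraries, by group; symbols mark replicates 1 to 4 and lines the group means. Ltbp3 is lowest in the 4 PPE week 1 libraries (185 to 224 CPM), Tgfbi is high in all 4 PPE week 1 libraries (778 to 1059 CPM), and Ltbp2 has 1 low PPE week 2 library at 222 CPM.

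Latent binder Ltbp3, which is secreted bound to the latent complex (NM_008520, chromosome 19, 5740900 to 5758536), was at 253, 265, 352 and 274 CPM in saline. PPE week 1 libraries had 224, 196, 213 and 185 CPM and PPE week 2 libraries 369.5, 388, 463 and 345 CPM. The 4 PPE week 1 libraries were the lowest of the 12, with no overlap with either other group, and the saline and PPE week 2 ranges overlapped only through saline replicate 3. Ltbp3 fell 1.40-fold at PPE week 1, from 286 ± 45.0 to 205 ± 17.5 CPM (log2 fold change -0.48 ± 0.13, edgeR adjusted p = 0.0331), and was 1.91-fold higher at PPE week 2 than at PPE week 1, at 391 ± 50.7 CPM (0.93 ± 0.13, adjusted p = 0.00109). PPE week 2 against saline gave 0.45 ± 0.13 (adjusted p = 0.0794). The difference between the PPE weeks passed without any 1 of the 12 libraries, with an adjusted p of at most 0.00551, and in 9 of 10 other settings; with the ribosomal precursor share as a covariate it was 0.92 (adjusted p = 0.119). The fall at PPE week 1 did not pass without saline replicate 2, 3 or 4 or any 1 of the 4 PPE week 1 libraries (adjusted p = 0.0516 to 0.127), with that covariate (-0.49, adjusted p = 0.232), or with scaling by library size alone (-0.20, adjusted p = 0.531).

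Ltbp2, a microfibril protein of elastic tissue that resembles the other binders but does not bind latent TGF-beta (NM_013589, chromosome 12, 84783212 to 84876558), was at 365, 289, 648 and 355 CPM in saline and at 676, 655, 659 and 645 CPM at PPE week 1. The PPE week 2 values were 222, 1183, 1117 and 1138 CPM. The PPE week 1 values lay between 645 and 676 CPM and overlapped saline only through saline replicate 3. In PPE week 2, 3 libraries were the highest of the 12 and replicate 1 was the lowest of the 12. An annotated antisense gene overlaps the first exon of Ltbp2, and without strand the reads of both cannot be told apart there. No difference passed: the log2 fold changes were 0.67 ± 0.44 at PPE week 1 (edgeR adjusted p = 0.447), 1.14 ± 0.44 at PPE week 2 (0.222) and 0.47 ± 0.44 between the PPE weeks (0.622). Without PPE week 2 replicate 1 they were 0.67, 1.47 and 0.79, and all 3 passed (adjusted p = 0.0335, 0.00329 and 0.0357). That library also had the highest marker sums of the 12 for endothelium (1184 CPM), for white and brown adipocytes (628 CPM) and for Schwann cells and neurons (306 CPM), whose part in the result was not tested.

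Ltbp1 is transcribed from 2 start sites into a long form, whose extra first part binds the matrix, and a short form. The deposited counts list them separately. The long form (NM_019919), from the start of the gene at chromosome 17, 75005480 to 75392512, had 645 counts over all 12 libraries, and the short form (NM_206958), whose own bases lie in its first exon at 75178810 to 75179036, had 1147. The short form was at 6.79, 9.09, 25.5 and 18.5 CPM in saline. Its values were 5.42, 2.65, 1.87 and 6.69 CPM in PPE week 1 and 4.85, 5.18, 24.8 and 7.63 CPM in PPE week 2. All PPE week 1 values lay below all saline values, the closest pair being 6.69 and 6.79 CPM. The log2 fold change at PPE week 1 was -1.85 ± 0.60 and did not pass (edgeR adjusted p = 0.0705), though it did in DESeq2 (-1.87, adjusted p = 0.0171) and with PPE week 2 replicate 1 or 3 left out (adjusted p = 0.0493 and 0.0311). For PPE week 2 it was -0.49 ± 0.58 against saline (adjusted p = 0.744) and 1.35 ± 0.59 against PPE week 1 (0.203).

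The long form of Ltbp1 was at 1.92, 4.92, 2.48 and 7.76 CPM in saline. PPE week 1 had 6.33, 1.66, 3.89 and 4.19 CPM and PPE week 2 had 14.6, 4.22, 4.90 and 5.54 CPM. The groups overlapped, and PPE week 2 replicate 1 was the highest. Its log2 fold changes were -0.08 ± 0.60, 0.78 ± 0.60 and 0.86 ± 0.60 (edgeR adjusted p = 0.964, 0.579 and 0.470). As a share of the counts of both forms, the long form made up 22, 35.1, 8.88 and 29.6% in saline, 53.9, 38.5, 67.5 and 38.5% in PPE week 1 and 75, 44.9, 16.5 and 42.1% in PPE week 2. The 4 PPE week 1 shares lay above the 4 saline shares, with means of 49.6% ± 14.0 and 23.9% ± 11.4 (SD, n = 4; two-sided exact permutation p = 0.0286, 0.0857 after Benjamini-Hochberg adjustment over the 3 comparisons). The share at PPE week 2 was 44.6% ± 23.9, with an exact permutation p of 0.171 against saline and 0.771 against PPE week 1 (adjusted 0.257 and 0.771). This share was computed after the levels of the forms had been seen, and it rests on 39 to 339 counts per library. Since the forms have own parts of 1758 and 227 bases it is no molar ratio. The own bases of the long form also reach 75391767, past the end of the short-form model at 75391336. Reads there may come from either form, so the share may not separate the forms fully.

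**Figure D2:**
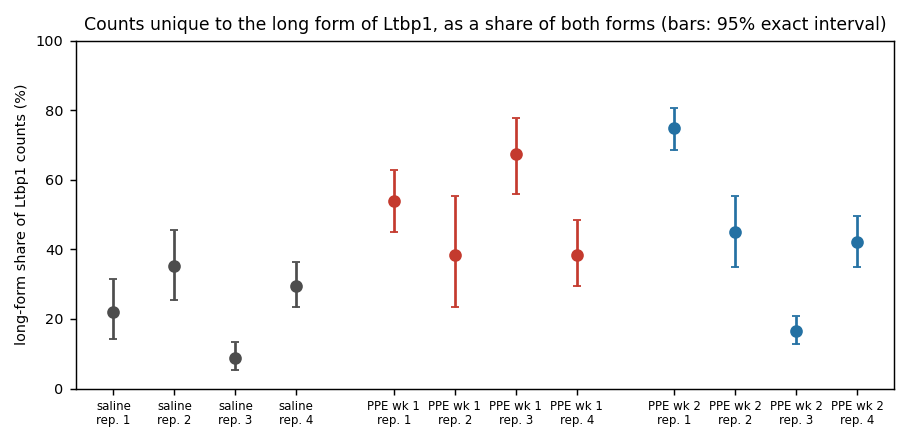
Percent of Ltbp1 counts that were assigned to the long form (vertical axis) in each library, with 95% exact Clopper-Pearson intervals that cover counting error only. They take every count as independent and are too narrow if both reads of a pair were counted. Saline libraries sit between 8.88 and 35.1% and PPE week 1 libraries between 38.5 and 67.5%, with overlapping intervals for several libraries; PPE week 2 runs from 16.5 to 75%.

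Ltbp4, a binder that also helps to assemble elastic fibres (chromosome 7, 27305140 to 27339720), had only 60 counts over its 3 accessions and all 12 libraries, and was not tested. Among the genes described here, those with a single accession had 6213 to 85681 counts in all, while no accession of a gene with several overlapping accessions had more than 1147. How reads shared between accessions were counted is not given in the sources used here, so the level of Ltbp4 is not known from these counts.

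Both receptors also have several accessions, and both had few counts. Tgfbr1, the type I receptor (chromosome 4, 47353222 to 47414926), had counts for 1 of 3 accessions, NM_001312869, whose own 274 bases are an alternative first exon. It was at 4.53, 5.07, 4.44 and 1.55 CPM in saline, 7.99, 2.10, 2.62 and 6.59 CPM at PPE week 1 and 2.80, 4.70, 3.85 and 4.53 CPM in PPE week 2. Tgfbr2, the type II receptor (NM_009371, chromosome 9, 116087695 to 116175363), was at 3.22, 0.30, 1.57 and 0.52 CPM, 5.23, 2.54, 3.59 and 2.10 CPM, and 1.59, 3.45, 2.63 and 4.53 CPM in the same order. The groups overlapped for both genes. The log2 fold changes of Tgfbr1 were 0.31 ± 0.58, 0.03 ± 0.58 and -0.28 ± 0.58 (edgeR adjusted p = 0.840, 0.990 and 0.857), and those of Tgfbr2 1.24 ± 0.79, 1.09 ± 0.79 and -0.14 ± 0.77 (0.409, 0.539 and 0.953). These values rest on 525 and 350 counts over all 12 libraries. These are the counts of 1 listed transcript of each receptor, not of the gene. For Tgfbr2 its own 4711 bases reach 116084293, past the 3′ end of the other model at 116088929. Reads there may come from either form.

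Tgfbi, the matrix protein induced by TGF-beta (NM_009369, chromosome 13, 56609586 to 56639359), was at 479, 402, 332 and 356 CPM in saline. It was at 851, 1059, 778 and 883 CPM in the PPE week 1 libraries and at 404, 713, 284 and 692 CPM in the PPE week 2 libraries. PPE week 1 lay above both other groups without overlap, and PPE week 2 was split as for Tgfb1, with replicates 2 and 4 above all saline libraries and replicates 1 and 3 within or below their range. Tgfbi rose 2.28-fold at PPE week 1, from 392 ± 64.5 to 893 ± 119 CPM (SD, n = 4; log2 fold change 1.19 ± 0.25, edgeR adjusted p = 0.0136). The PPE week 2 mean of 523 ± 213 CPM gave 0.42 ± 0.25 against saline (adjusted p = 0.440) and -0.77 ± 0.25 against PPE week 1 (adjusted p = 0.0853). The rise did not pass without saline replicate 4 (adjusted p = 0.0509) or PPE week 1 replicate 2 (0.0517), or with the ribosomal precursor share as a covariate (1.19, adjusted p = 0.134). The difference between the PPE weeks passed in DESeq2 (adjusted p = 0.0166) and limma-voom (0.0238), and without PPE week 2 replicate 2 (0.0343) or 4 (0.0385).

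**Figure D3:**
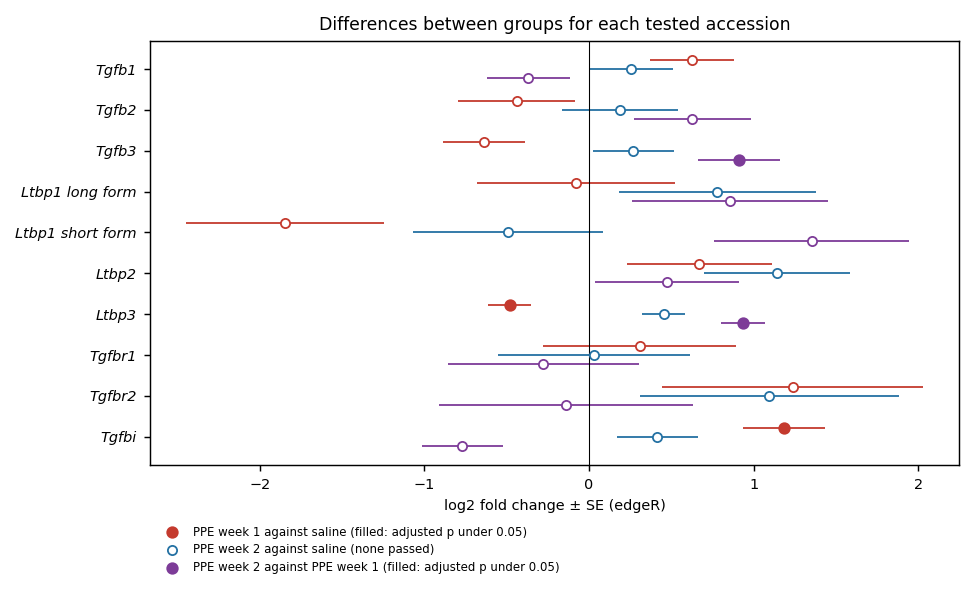
Log2 fold change (horizontal axis) with its standard error for each tested accession of the TGF-beta genes in the 3 comparisons, from edgeR; filled points passed an adjusted p under 0.05. The filled points are Ltbp3 (-0.48) and Tgfbi (1.19) at PPE week 1, and Tgfb3 (0.91) and Ltbp3 (0.93) between the PPE weeks.

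Counted over the 9 tested genes, PPE week 1 against saline had 1 higher (Tgfbi) and 1 lower (Ltbp3), where edgeR called 7.89% of all 12756 tested accessions (3.98% higher and 3.91% lower). The groups did not overlap for 5 of the 9, with Tgfb1 and Tgfbi above saline and Tgfb3, the Ltbp1 short form and Ltbp3 below it, against 21.1% of all tested accessions. When edgeR was fitted to the 8 libraries of saline and PPE week 1 alone, Tgfb1, Ltbp2 and Tgfbi were called higher and Tgfb3, the Ltbp1 short form and Ltbp3 lower, in a fit that called 9.55% of its 11655 accessions higher and 7.83% lower. In PPE week 2 against saline 0 of the 9 passed in edgeR, while at an unadjusted p under 0.05 Ltbp2 and Ltbp3 were higher and 0 were lower; DESeq2 and limma-voom called 0 as well. The background there was 2.65% called (1.30% higher and 1.35% lower) and 8.99% without overlap, and all 9 genes overlapped. Between the PPE weeks 2 were higher (Tgfb3 and Ltbp3) and 0 lower, with 3 and 1 at an unadjusted p under 0.05. Of all accessions 6.59% were called there, 3.77% higher and 2.82% lower. PPE week 2 and PPE week 1 did not overlap for 3 of the 9, Tgfb3 and Ltbp3 above PPE week 1 and Tgfbi below it, against 15.9%. The median log2 fold change of the 9 was 0.31, 0.27 and 0.47 in the 3 comparisons, beside 0.0027, 0.05 and 0.02 over all tested accessions. The comparisons with saline share the same 4 control libraries and are not independent of each other.

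The authors' deposited table for PPE week 1 called 6 of the 11 accessions of these genes that it held, and of its 13810 accessions it called 9.23% higher and 8.18% lower. The higher ones in the authors' deposited table were Tgfb1 (log2 fold change 0.59, adjusted p = 0.00104), Ltbp2 (0.63, 0.00600) and Tgfbi (1.15, 1.47e-14). The lower ones in the authors' deposited table were Tgfb3 (-0.64, 0.00652), the short form of Ltbp1 (-1.56, 0.00217) and Ltbp3 (-0.49, 0.00217). The authors' deposited table for PPE week 2, which called 2.20% of its 9917 accessions higher and 1.63% lower, called 0 of the 9 it held, with Ltbp2 at 0.76 (adjusted p = 0.263) and Ltbp3 at 0.43 (0.129). All 6 had the same sign in edgeR, where 4 of them, Tgfb1, Ltbp2, Tgfb3 and the short form of Ltbp1, did not pass in the fit to all 12 libraries.

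Markers of macrophages and smooth muscle moved with the called genes, while the fibroblast sum was low in both PPE weeks. Tgfbi and Tgfb1 were high in libraries with a high macrophage and monocyte sum. In PPE week 2 that sum was 2445 and 2736 CPM in replicates 2 and 4, which had 713 and 692 CPM of Tgfbi, and 1145 and 1068 CPM in replicates 1 and 3, which had 404 and 284 CPM. Of the 8 macrophage and monocyte genes 7 were tested, and Cd68 and Cd14 rose at PPE week 1. Tgfb3, Ltbp3 and the short form of Ltbp1 had their lowest group means at PPE week 1, where the smooth muscle sum was lowest and 5 of its 7 genes fell (Acta2, Myh11, Tagln, Cnn1 and Lmod1), and where 4 of 6 tested fibroblast genes fell (Dcn, Lum, Dpt and Pi16). The fibroblast sum was still 874 to 1115 CPM in PPE week 2, below the 1416 to 1648 CPM of saline. Dcn, Lum and Dpt were lower there than in saline, while Pi16 and Clec3b were higher than at PPE week 1. Tgfb3 and Ltbp3 had PPE week 2 means of 269.6 and 391 CPM, beside 224 and 286 CPM in saline. PPE week 2 replicate 3 had the highest smooth muscle sum, 9450 CPM, and also the highest Tgfb2, Tgfb3 and Ltbp3 of the 12 libraries. The part of cell composition in the changes of Tgfbi, Tgfb3 and Ltbp3 was not tested.

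**Figure D4:**
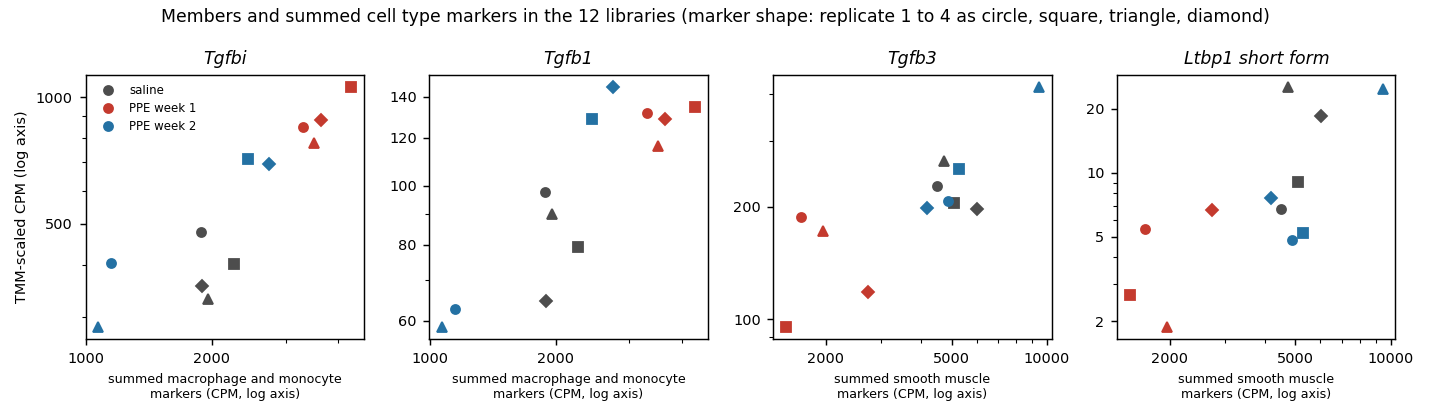
CPM of Tgfbi and Tgfb1 against the summed macrophage and monocyte markers, and of Tgfb3 and the short form of Ltbp1 against the summed smooth muscle markers, 1 point per library and log axes throughout. PPE week 1 libraries lie at 3307 to 4306 CPM of the macrophage sum and at 1496 to 2726 CPM of the smooth muscle sum, apart from the saline libraries in each.

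The genes whose log2 CPM was most like that of a called member, by Pearson r over the 12 libraries among 6922 genes at a mean of at least 10 CPM, were Tmem106a (r = 0.982) and Cxcl10 (0.977), a chemokine induced by interferon, for Tgfbi. For Ltbp3 they were Ctif (0.954) and Pmepa1 (0.945), an inhibitor of TGF-beta signalling that the pathway itself induces, and for Tgfb3 they were Man2a2 (0.920) and Tnrc6c (0.903). The 12 points include the differences between groups and share the library's depth and scaling, so the r values are a description.

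The rest of the pathway was taken from a list of 67 genes that activate the ligands, serve as related receptors, carry or inhibit the signal, or respond to it. Of these 54 were tested, and 13 had too few counts. Among the untested were the activator Thbs1 with 4 counts, the co-receptor Eng with 1 and the protease inhibitor Timp1 with 0. The signal carriers Smad2 and Smad5 had 52 and 46. How reads shared between accessions were counted is not given, so these low counts do not show that the genes were little expressed. In the comparison of PPE week 1 with saline 1 of the 54 rose and 11 fell, with a median log2 fold change of -0.16 (over all tested accessions 3.98% rose and 3.91% fell). In that of PPE week 2 with saline 1 rose and 4 fell, with a median of -0.02 (1.30% and 1.35% over all). Between the PPE weeks 6 were higher and 5 lower, with a median of 0.07 (3.77% and 2.82% over all).

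The gene that rose at PPE week 2 was Emilin1 (0.64 ± 0.17, edgeR adjusted p = 0.0496), a microfibril protein that binds the TGF-beta precursor, and 1 of those that fell was the collagen-modifying enzyme Plod2 (-1.56 ± 0.38, adjusted p = 0.0376). These genes and Itgb1, an integrin subunit that fell at PPE week 1 (-0.45 ± 0.13, adjusted p = 0.0460), are named after their values were seen. All 3 calls were near the threshold. That of Emilin1 was lost when any 1 library other than PPE week 2 replicate 1 was left out (0.0687 to 0.126), that of Itgb1 for saline replicates 1, 3 and 4 and each PPE week 1 library (0.0790 to 0.166), and that of Plod2 for saline replicates 1, 3 and 4, PPE week 1 replicates 2 and 3, and PPE week 2 replicates 2 and 4 (0.0561 to 0.114).

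In the group that activates or holds the ligands, with 10 tested genes, Nrros was the gene that rose at PPE week 1 and Itgb1 and Itgb3 fell. Nrros, a protein of macrophages and microglia that anchors latent TGF-beta at the cell surface, was at 29.5, 50.8, 41.9 and 36.4 CPM in saline and at 91.2, 112, 84.0 and 88.3 CPM at PPE week 1. It was at 32.3, 67.4, 32.6 and 67.9 CPM at PPE week 2, with replicates 2 and 4 high as for Tgfb1 and Tgfbi. Its log2 fold change at PPE week 1 was 1.24 ± 0.25 (edgeR adjusted p = 0.00795) and between the PPE weeks -0.91 ± 0.25 (adjusted p = 0.0400). The first passed without any 1 library, and the second did not pass without saline replicate 3 or 4, any 1 of the PPE week 1 libraries, or PPE week 2 replicate 1 or 3 (adjusted p = 0.0503 to 0.130). Itgb3, an integrin subunit that can release the ligand, fell at PPE week 1 from 197 ± 53.2 to 105 ± 18.5 CPM (-0.91 ± 0.24, adjusted p = 0.0311), a call lost without saline replicate 1, 3 or 4 or any 1 PPE week 1 library (0.0590 to 0.103).

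Fbn1, the fibrillin of the microfibrils that hold the latent complex, was lower at PPE week 2 than in both other groups. It was at 2281, 2328, 2474 and 1954 CPM in saline, at 2362, 2152, 2367 and 2236 CPM at PPE week 1 and at 1186, 1454, 1474 and 1595 CPM at PPE week 2. The 4 PPE week 2 libraries lay below the other 8. The log2 fold change was -0.66 ± 0.11 against saline (edgeR adjusted p = 0.00420) and -0.67 ± 0.11 against PPE week 1 (adjusted p = 0.00172), and 0.01 ± 0.11 at PPE week 1 (0.967). Both calls passed without any 1 library. Neither passed with scaling by library size alone. Fbn2, the fibrillin of developing tissue, was lower at PPE week 2 than at PPE week 1, at 61.7 ± 24.4 against 151 ± 29.9 CPM (-1.29 ± 0.33, adjusted p = 0.0356), a call lost without saline replicate 1, any 1 PPE week 1 library, or PPE week 2 replicate 1, 2 or 3 (0.0523 to 0.109).

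Among 6 tested co-receptors and related receptors, Bmpr1a, the type I receptor for bone morphogenetic proteins, was the gene called. It was at 233, 189, 216 and 236 CPM in saline, 106, 88.6, 115 and 107 CPM at PPE week 1 and 135, 146, 227 and 121 CPM at PPE week 2. PPE week 1 lay below both other groups. The log2 fold change at PPE week 1 was -1.07 ± 0.17 (edgeR adjusted p = 0.00220), and it passed in all 10 other settings and without any 1 library, with an adjusted p of at most 0.0304. The difference between the PPE weeks, 0.59 ± 0.17, was at the threshold (adjusted p = 0.0498) and was lost without any 1 of the saline or PPE week 1 libraries or PPE week 2 replicate 3 (0.0621 to 0.182), and in limma-voom, in the 8 libraries of the PPE weeks alone and with the replicate number as a block (0.0537).

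Of 17 tested Smads and inhibitors 3 fell at PPE week 1 and none rose, beside 3.91% and 3.98% of all accessions. Pmepa1 was at 192, 235, 278 and 250.03 CPM in saline, 166, 160.0, 153 and 172 CPM at PPE week 1 and 258, 326, 380 and 325 CPM at PPE week 2. Its pattern was that of Ltbp3, with PPE week 1 below both other groups. It was lower at PPE week 1 (-0.55 ± 0.14, edgeR adjusted p = 0.0208) and higher at PPE week 2 than at PPE week 1 (0.98 ± 0.14, 0.00106). The first call was lost when 1 of saline replicates 3 and 4 and PPE week 1 replicates 1, 2 and 3 was left out (0.0547 to 0.0792) and with scaling by library size alone, and the second passed without any 1 library. Smurf2, a ubiquitin ligase for Smads and the receptor, fell from 172 ± 25.1 to 108 ± 2.80 CPM (-0.67 ± 0.15, 0.0143), lost without saline replicate 4 (0.0590).

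The proteoglycan Dcn, which binds TGF-beta and is a marker of fibroblasts, fell at PPE week 1 (-0.63 ± 0.17, edgeR adjusted p = 0.0323) and at PPE week 2 against saline (-0.90 ± 0.17, 0.0108), from 171 ± 27.5 to 111 ± 17.4 and 91.5 ± 18.8 CPM. The week 1 call was lost when 1 of saline replicates 2, 3 and 4 and PPE week 1 replicates 1, 2 and 4 was left out (0.0501 to 0.124). Tgif1, a repressor of Smad-driven transcription, was lower at PPE week 2 than at PPE week 1, at 4.37 ± 1.74 against 15.9 ± 3.99 CPM (-1.86 ± 0.42, 0.0145), lost without PPE week 1 replicate 1 (0.0571). The signal carrier Smad3 was at 88.4 ± 29.1, 91.8 ± 15.5 and 74.6 ± 19.8 CPM and did not pass in any comparison. The inhibitory Smad7 was at 42.0 ± 16.1, 46.4 ± 5.55 and 68.0 ± 24.7 CPM and did not pass either, with 0.69 ± 0.29 at PPE week 2 against saline (adjusted p = 0.239).

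Of 21 tested response genes 5 fell at PPE week 1 and 4 of these were higher again at PPE week 2 than at PPE week 1, beside 3.91% of all accessions lower in the first comparison and 3.77% higher in the second. Ccn2, connective tissue growth factor, was at 844, 700.3, 1386 and 1264 CPM in saline, 313, 280.4, 356 and 366 CPM at PPE week 1 and 565, 877, 1357 and 635 CPM at PPE week 2. The 4 PPE week 1 libraries were the lowest of the 12. The log2 fold change was -1.67 ± 0.28 at PPE week 1 (edgeR adjusted p = 0.00552) and 1.38 ± 0.28 between the PPE weeks (0.0146), the second lost without PPE week 1 replicate 1 or 2 (0.0566 to 0.0696). The contractile genes Cnn1, Tagln and Acta2, which are also smooth muscle markers in the sums above, fell by 1.85, 1.51 and 1.25 on the log2 scale at PPE week 1 (adjusted p = 0.00403, 0.00406 and 0.0116). Between the PPE weeks they were higher by 1.97, 1.55 and 1.56 (0.00321, 0.00381 and 0.00431), and these calls passed without any 1 library.

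Postn, the matrix protein periostin, fell at PPE week 1 from 30.6 ± 10.4 to 12.4 ± 4.30 CPM (-1.30 ± 0.38, edgeR adjusted p = 0.0425) and was at 8.71 ± 4.24 CPM at PPE week 2 (-1.81 ± 0.38 against saline, 0.0184). The first call was lost without any 1 of the saline or PPE week 1 libraries (0.0507 to 0.139) and the second when saline replicate 3 or the PPE week 2 replicate 4 was left out (0.0523 to 0.0744). Loxl2, a matrix crosslinking enzyme of the lysyl oxidase family, was lower at PPE week 2 than at PPE week 1, at 176 ± 24.9 against 288 ± 53.5 CPM (-0.71 ± 0.14, 0.00690). With the ribosomal precursor share as a covariate, the fall of Bmpr1a at PPE week 1 was the only call of a named pathway gene that passed, and 0 of the 4 calls of Tgfb3, Ltbp3 and Tgfbi passed. With scaling by library size alone, the calls of Ltbp3, Pmepa1, Smurf2, Postn, Itgb1 and Itgb3 at PPE week 1, of Plod2 at PPE week 2, of Dcn and Fbn1 in each comparison, and of Loxl2, Nrros and Fbn2 between the PPE weeks did not pass. The covariate left 31 higher and 73 lower accessions called at PPE week 1 and 0 in the other comparisons. The share itself differed between the groups, with means of 41.3, 30.4 and 20.4%. Share and group can therefore not be fully told apart in that fit.

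**Figure D5:**
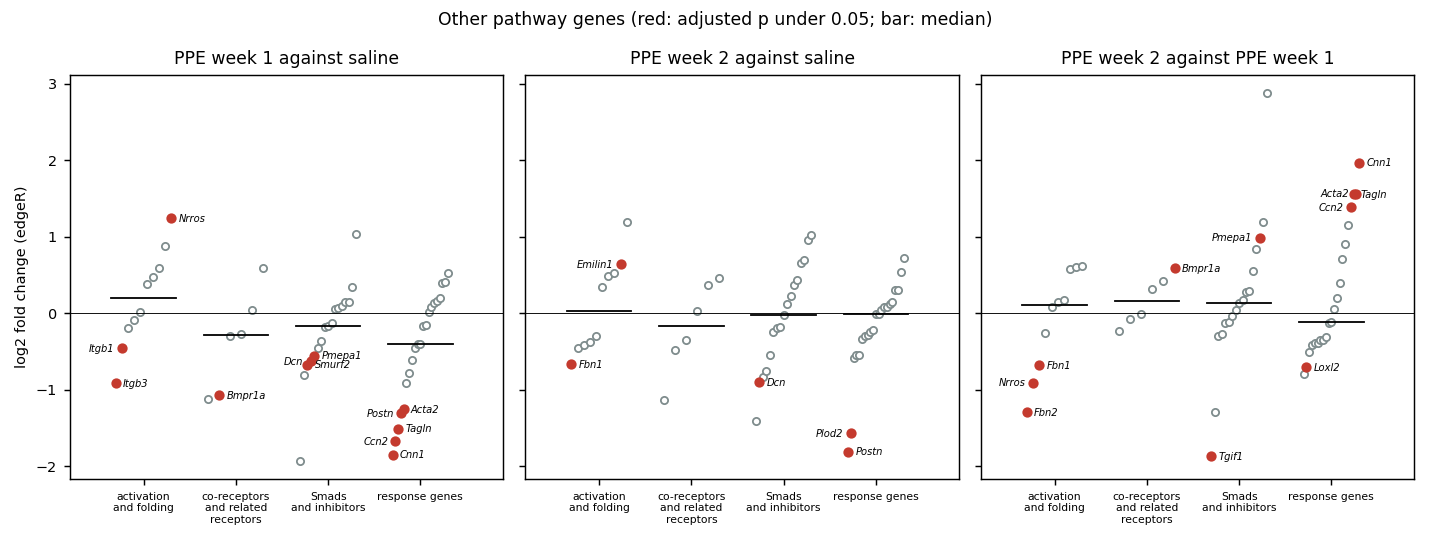
Log2 fold change (vertical axis) of the 54 tested pathway genes in 4 groups, for the 3 comparisons; red points passed an adjusted p under 0.05 in edgeR and bars are group medians. At PPE week 1 the response genes called are all below 0 (Cnn1 lowest at -1.85), and between the PPE weeks 4 of the 5 called are above 0.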

How the data were processed

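RNA of 12 mouse aortas was sequenced from libraries made with a kit that does not record strand, per the labels' protocols. The authors deposited a table of raw counts with a row per RefSeq accession. They also deposited, for each PPE week against the control, log2 fold changes and p-values. Per the submitters' processing notes bcl2fastq, DESeq2 and the build mm10 were used; which aligner and counter made the counts is not given in the sources used here. RefSeq's table for GRCm38.p6 named 34424 of 34755 accessions and GENCODE a further 192; lengths and own bases came from GENCODE vM21 models paired with the accessions.

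Differences were computed from the deposited counts with edgeR 4.0.16 in R 4.3.3. Accessions passing filterByExpr (12756) were scaled by TMM and fitted by a robust quasi-likelihood model to all 12 libraries, 1 mean per group, with two-sided tests, Benjamini-Hochberg adjustment over all accessions and a threshold of 0.05. The coefficient of biological variation was 0.512. The standard error is the log2 fold change divided by the square root of F. Between 66.0 and 75.6% of the counts of 2 to 20 in a library were even, so both reads of a pair may have been counted. Replicates differed by more than sampling noise in every pair (chi-square per accession 15.2 to 94.6). The alternatives were DESeq2 1.42.0, limma-voom (limma 3.58.1), scaling by library size alone, leaving out the ribosomal RNA precursor, no filter, only the 8 libraries compared, the replicate number as a block, halved counts, summed accessions, the precursor's share as a covariate, and each library left out.

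The genes and lists were chosen with earlier results of these data known. All 10 genes are described; of the pathway list the 15 genes with the smallest adjusted p under 0.05 in any comparison are named, and Thbs1, Ccn2, Smad3 and Smad7 always; 1 other gene named by that rule is not reported here. The fitting code was tested on simulated counts.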

Additional observations from a re-analysis of the deposited data

Results flagged for a closer look

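In 3 of 33 groups of 4 libraries checked, over the 10 tested accessions of the TGF-beta genes and the long-form share of Ltbp1, 1 library stood apart from the other 3 by Dixon's criterion; chance alone gives about 1 in 20 groups. All 3 were in PPE week 2. The long form of Ltbp1 was at 14.55 CPM in replicate 1, the highest of its group, and its short form at 24.78 CPM in replicate 3. Ltbp2 was at 221.8 CPM in replicate 1, against 1117 to 1183 CPM in the other 3.

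The level differed between the PPE weeks for 2 of the 9 tested genes, where 6.59% of all accessions were called. This is a difference between the week groups, which both received elastase and were taken at day 14 and at day 7. With no saline group at day 14, a changing effect of elastase and time after surgery cannot be told apart. The difference was 0.9099 on the log2 scale for Tgfb3 (edgeR adjusted p = 0.0449) and 0.9339 for Ltbp3 (adjusted p = 0.00109). The higher level was at PPE week 2 in each case, with all 4 week 2 libraries above all 4 week 1 libraries.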

How the results depend on the processing

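No called difference changed its sign under any alternative. At PPE week 1 against saline the 9 TGF-beta genes gave 1 higher and 1 lower. The number higher was 3 in the 8 libraries alone and 0 with the ribosomal precursor share as a covariate, and 0 to 2 with 1 library left out. The number lower was 2 in DESeq2 and with the replicate block, 3 in the 8 libraries alone, 0 with scaling by library size and with the covariate, and 0 to 3 with 1 library left out. At PPE week 2 against saline the number higher was 0, but 3 with scaling by library size (Ltbp2, Ltbp3 and Tgfbi) and 0 to 1 with 1 library left out; the number lower was 0 throughout. Between the PPE weeks the number higher was 2, but 1 without a filter and in the 8 libraries alone, 0 with the covariate and 1 to 3 with 1 library left out. The number lower was 0, but 1 (Tgfbi) in DESeq2, limma-voom and the replicate block, and 0 to 1 with 1 library left out. The cause of these changes was not tested.

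Over all accessions the 508 higher and 499 lower at PPE week 1 became 1034 and 195 with scaling by library size, which moves the median of all accessions from 0.0027 to 0.28, and 1113 and 913 in the 8 libraries alone, 832 and 755 in DESeq2. For PPE week 2 against saline 166 and 172 became 1611 and 27, 33 and 41, and 410 and 335, with medians of 0.05 and 0.54 under the 2 scalings. Between the PPE weeks 481 and 360 became 682 and 75, 337 and 184, and 812 and 651, with medians of 0.02 and 0.23, while limma-voom gave 458 and 694. With the covariate the counts were 31 and 73, 0 and 0, and 0 and 0. With 1 library left out they ranged from 156 to 789 and 222 to 607 at PPE week 1, 67 to 218 and 72 to 198 at PPE week 2, and 207 to 642 and 112 to 607 between the weeks.

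Replicate numbers are shared between the groups, but libraries with the same number did not deviate together (r from -0.088 to 0.035 over 12 pairs, and 0 of 12 libraries correlated best with its own number). The replicate block moved the counts over all accessions to 419 and 446, 91 and 113, and 388 and 330. Among single genes it passed Tgfb3 at PPE week 1 (-0.67, edgeR adjusted p = 0.0401) and Tgfbi between the weeks (-0.83, adjusted p = 0.0351), and lost Bmpr1a (0.0537) and Fbn2 (0.0700) between the weeks and Emilin1 (0.0903) and Plod2 (0.0530) at PPE week 2. Tgfbr1, Tgfbr2 and both forms of Ltbp1 rest on 350 to 1147 counts each over all 12 libraries, and their log2 standard errors were 0.58 to 0.79; how far depth sets these errors was not tested.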

Other observations

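Per 1000 bases of transcript, Tgfbi was the highest of the single-accession genes described here in every group, with means of 145 ± 23.8 CPM in saline, 329 ± 43.9 in PPE week 1 and 193 ± 78.5 in PPE week 2 (SD, n = 4). Ltbp2 was at 62.7 ± 24.1, 99.8 ± 1.92 and 139 ± 70.1, and Ltbp3 at 55.1 ± 8.67, 39.4 ± 3.37 and 75.4 ± 9.77. The log2 ratio of Ltbp2 to Ltbp3 counts within a library was 0.13 to 0.88 in saline and 1.59 to 1.80 at PPE week 1, without overlap. In PPE week 2 it was -0.74 in replicate 1 and 1.27 to 1.72 in the other 3 libraries. The ratio was taken after the levels were seen and was not tested.

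T and NK cell markers summed to 5.75 to 16.5 CPM in saline, 59.6 to 83.8 in PPE week 1 and 14.7, 80.5, 15.3 and 58.1 in PPE week 2 replicates 1 to 4. Replicates 2 and 4 were again the high ones, as for Tgfb1, Tgfbi and Nrros.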
